A study of Callithrix jacchus with 5 samples.

Results

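The genes described here encode secreted or membrane-bound parts of the extracellular matrix and enzymes that remodel it: FN1, FBN1, FBLN1, DCN, TGFBI, MMP2, TIMP1, FAP and CD44. They were chosen by function and found by pairing the Ensembl marmoset identifiers of the count table with gene symbols. All 9 were found among 30811 identifiers, each with 1 identifier, and all 9 had enough reads to be tested. RNA was sequenced from cultured common marmoset (Callithrix jacchus) cells. The iPS group is 1 library (RNAiPS_1) of induced pluripotent stem cells, which the series title says were obtained by RNA-based reprogramming of fibroblasts, a method that supplies the reprogramming factors as RNA. The fibroblast group is 1 library (E01F) that carries a P number of 1 in its title. The ES group is 3 libraries of embryonic stem cells, 1 from each of the lines No40, DSY127 and No20, with P numbers of 63, 17 and 45. The labels give neither the age or sex of the animals nor the culture conditions, and do not say whether the iPS cells came from the fibroblasts sequenced.

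The extracellular matrix is the network of proteins and sugars that cells secrete and attach to. Fibronectin (FN1) is assembled into fibrils that cells grip through integrins, fibrillin-1 (FBN1) forms the microfibrils of elastic tissue, and fibulin-1 (FBLN1) binds to fibronectin and basement membrane proteins. Decorin (DCN) is a small proteoglycan that coats collagen fibrils, and TGFBI is an adhesion protein named for its induction by TGF-beta. MMP2 is a secreted metalloproteinase that cuts gelatin and basement membrane collagen, TIMP1 inhibits metalloproteinases, and FAP is a surface protease known as a marker of activated fibroblasts. CD44 is the main cell surface receptor for hyaluronan. Connective tissue fibroblasts are known as major producers of such matrix.

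Total counts were 5746449 in the iPS library, 58601185 in the fibroblast library, and between 34111715 and 46523012 in the ES libraries, so the iPS values rest on the fewest reads. Levels are given as CPM, which are counts relative to library size after TMM scaling, a step that offsets differences in RNA composition, and 1 read was worth 0.169 CPM in the iPS library against at most 0.0278 CPM elsewhere. Only the ES group is replicated, so the spread in each test came from those 3 lines (residual degrees of freedom 2). For each gene edgeR moderated it towards the trend over all genes. Nothing in the labels says how far a lone library represents its cell type. All 8 measured pluripotent cell markers fell in the fibroblast library and 12 of 13 measured fibroblast markers rose, PDGFRB being the exception. All 5 epithelial and 4 of 8 endothelial markers fell there, and of 5 smooth muscle and pericyte markers 3 rose and 1 fell. Of 7 endoderm and mesoderm markers tested 1 rose and 3 fell, of 2 melanocyte markers 1 fell, and none of 2 leukocyte or 2 keratinocyte markers passed the edgeR test. In the iPS library COL1A2 and PRRX1, both fibroblast markers, were the only ones of these genes that passed, both higher than in the ES lines. Of all genes tested, 0.109% were called higher there. As these are bulk samples, a lower level from fewer expressing cells and one from less RNA per cell cannot be told apart.

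**Figure D1:**
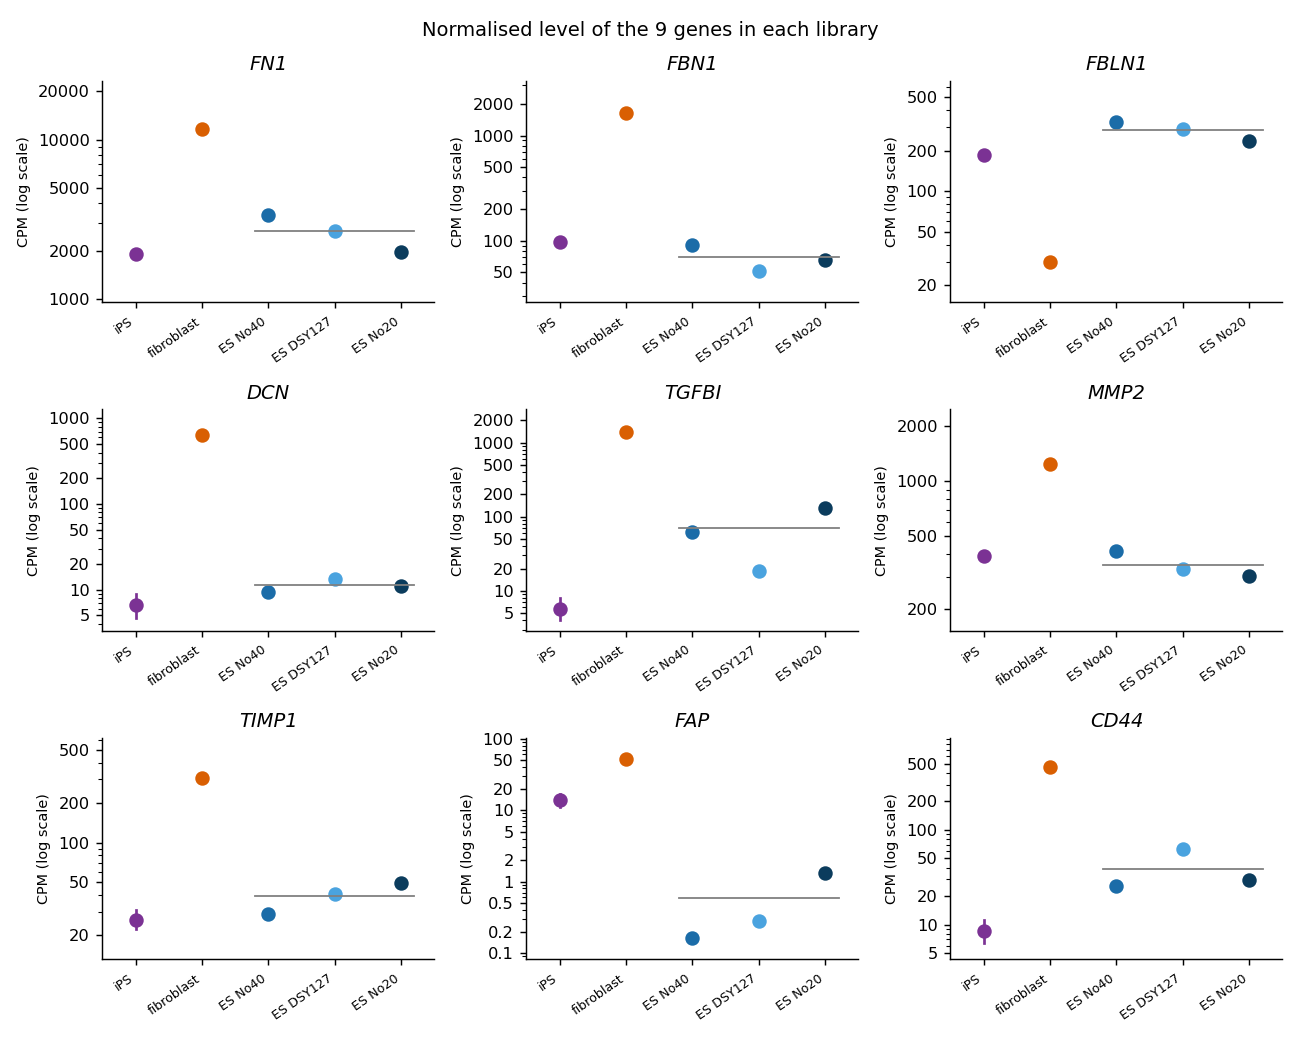
Level of each gene in CPM (log axis, scaled separately for each gene) in the iPS library, the fibroblast library and the 3 ES lines. Points are single libraries, vertical lines on the iPS and fibroblast points are 95% exact Poisson intervals (often smaller than the point), and grey lines are the means of the ES lines. The fibroblast point lies above all other libraries for 8 genes and below them for FBLN1.

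The first comparison sets the fibroblasts against the ES lines. Of the 9 genes, 8 rose in the fibroblast library and FBLN1 fell, at an adjusted p under 0.05 (edgeR quasi-likelihood test). Over all 17462 genes tested, 8.80% were called higher and 9.28% lower (1537 and 1620 genes), a split that total counts alone turned into 1066 higher and 2016 lower. The median log2 fold change of the 9 genes was 3.58, beside -0.15 over all genes tested. The size of the rise differed widely, from 3.54-fold for MMP2 to 86.7-fold for FAP, as ratios of the fibroblast CPM to the ES mean. In every case the fibroblast value lay outside the range of the ES lines, above it for 8 genes and below it for FBLN1, positions that 35.4% and 39.0% of all genes tested also held.

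Among the structural glycoproteins, FN1 had 11625 CPM in fibroblasts, against 3364, 2666 and 1985 CPM in ES lines No40, DSY127 and No20. It was abundant in all cells, and its rise was the second smallest (log2 fold change 2.12 ± 0.35 SE, adjusted p = 0.00983). FBN1 had 1649 CPM in fibroblasts, against 91.5, 51.9 and 65.7 CPM in the same lines (4.56 ± 0.37, adjusted p = 0.00158). The ES lines thus held FN1 at 22.98% of the fibroblast level on average and FBN1 at 4.23%. TGFBI had 1406 CPM in fibroblasts, against 62.8, 18.7 and 133 CPM across ES lines (4.29 ± 0.82, adjusted p = 0.0161). It had the largest adjusted p of the 9 and a wide spread among ES lines, and it did not pass without ES line No40 (log2 fold change 4.25, adjusted p = 0.0868). Without No20, its highest line, the log2 fold change was 5.23.

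FBLN1 went the other way. It had 29.8 CPM in fibroblasts, against 330.0, 292 and 236 CPM in ES lines No40, DSY127 and No20, a 9.6-fold lower level (log2 fold change -3.26 ± 0.43, adjusted p = 0.00519). The fall kept its call in all 11 alternative fits, with log2 fold changes between -3.65 and -3.07. Of the other fibulins on the matrix glycoprotein list, 4 rose. FBLN5, which takes part in elastic fibre assembly, rose with 430.1 CPM in fibroblasts against 10.98 ± 1.77 CPM in the ES lines (SD, n = 3), as did EFEMP1, or fibulin-3 (357 against 27.2 ± 7.35 CPM), EFEMP2, or fibulin-4 (158 against 8.15 ± 4.43 CPM), and HMCN1, or hemicentin-1, also called fibulin-6 (366 against 36.9 ± 12.4 CPM). FBLN2 had 736 CPM in fibroblasts and 172 ± 98.5 CPM in the ES lines, which did not pass (adjusted p = 0.0706). FBLN7 had 3.36 CPM in fibroblasts and 4.91 ± 1.5 CPM in the ES lines, which did not pass either (adjusted p = 0.608). The fibulins other than FBLN5 were picked by family, after their values were seen.

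DCN, the proteoglycan of the set, had 636 CPM in fibroblasts, against 9.39, 13.2 and 11.05 CPM in ES lines No40, DSY127 and No20. Its ES values were tight, and the 56.7-fold rise had the smallest adjusted p of the 9 (log2 fold change 5.82 ± 0.34, adjusted p = 0.00119). CD44, the hyaluronan receptor, had 465 CPM in fibroblasts, against 25.3, 62.5 and 29.3 CPM in the same lines (3.58 ± 0.51, adjusted p = 0.00637). Line DSY127 held the highest CD44 level of the ES lines and was still far below the fibroblasts, and without it the log2 fold change was 4.17.

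The remodelling genes also rose, by very different amounts. MMP2 had 1237 CPM in fibroblasts, against 414, 329.6 and 303 CPM in the ES lines, the smallest rise of the set (1.83 ± 0.31, adjusted p = 0.0114). TIMP1, the metalloproteinase inhibitor, had 309 CPM in fibroblasts, against 28.9, 40.6 and 49.1 CPM across ES lines (2.96 ± 0.37, adjusted p = 0.00434). FAP had 51.1 CPM in fibroblasts, against 0.163, 0.278 and 1.33 CPM in the ES lines, where it rested on 8, 10 and 58 reads (6.43 ± 1.0, adjusted p = 0.00844). FAP was therefore close to silent in lines No40 and DSY127 and clearly above that in No20, while MMP2 was well expressed in every line. Without ES line No20 the log2 fold change of FAP was 7.97.

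**Figure D2:**
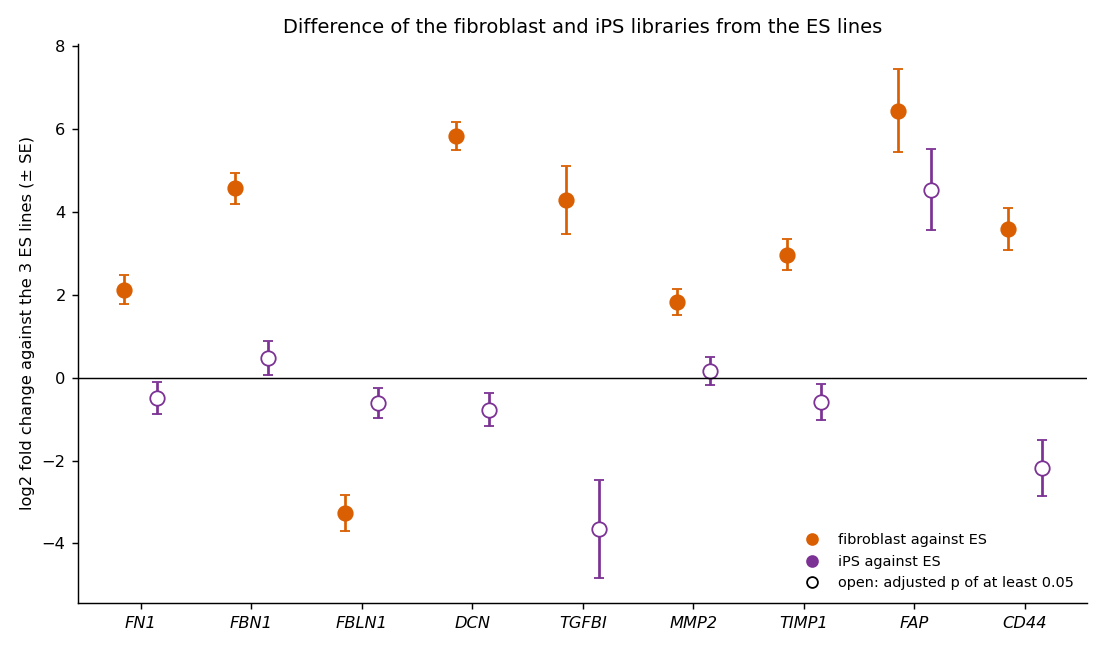
Log2 fold change of the fibroblast library (orange, left of each pair) and the iPS library (purple, right) against the 3 ES lines, with its SE, for each of the 9 genes. Filled points passed an adjusted p of 0.05 and open points did not. All fibroblast points are filled and lie between -3.26 (FBLN1) and 6.43 (FAP), and all iPS points are open. Both contrasts share the 3 ES libraries.

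The second comparison sets the iPS cells against the ES lines. None of the 9 genes passed in the edgeR test, in which 0.109% of all genes were called higher and 0.00% lower. Before adjustment, p was under 0.05 for 1 higher gene (FAP) and 2 lower genes (TGFBI and CD44), and for 5.56% of all genes tested in the higher and 3.13% in the lower direction. After adjustment DESeq2 called 1 of the 9 higher and 2 lower, with 2.26% of all genes called higher and 0.434% lower. Limma voom called none of the 9 in either direction, with 0.0286% of all genes called higher. The iPS value lay above the range of the ES lines for 2 genes, below it for 6 and inside it for MMP2, whereas 26.5% of all genes tested lay above and 31.5% below. The median log2 fold change of the 9 genes was -0.59, beside -0.11 over all genes tested.

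FAP stood out among them. It had 13.7 CPM in the iPS library (81 reads, 95% exact Poisson interval 10.9 to 17.02 CPM), against 0.163, 0.278 and 1.33 CPM in ES lines No40, DSY127 and No20. The iPS value was over 10 times that of line No20, the highest ES line for this gene, and 23.2-fold the ES mean (log2 fold change 4.53 ± 0.98, adjusted p = 0.175). Without line No20 it passed (5.98, adjusted p = 0.00132), as it did with no filter on low counts (adjusted p = 0.0332) and with DESeq2 (adjusted p = 0.000496), and over all alternatives the adjusted p ran from 0.000496 to 0.462. On the log2 scale the iPS library lay 72.1% of the way from the ES mean to the fibroblast value. Some of the 13 measured fibroblast markers were higher there too. Their summed level was 12235 CPM in the iPS library, 87130.1 CPM in fibroblasts and 1737 to 3022 CPM in the ES lines. Most of the iPS sum came from COL1A1 (4922 CPM), COL1A2 (3447 CPM) and COL3A1 (1684 CPM). The median log2 fold change of the 13 genes against the ES lines was 0.03. Of these 13 genes, 6 lay above the ES range in the iPS library (COL1A1, COL1A2, COL3A1, COL5A2, PRRX1 and TWIST2). Another 4 lay below it (COL5A1, COL6A3, PDGFRA and PDGFRB), and none was without reads. Over all genes tested, 26.5% lay above and 31.5% below the ES range in the iPS library. The part of these markers in the FAP value was not tested.

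TGFBI and CD44 had low values instead. TGFBI had 5.75 CPM in the iPS library (34 reads, interval 3.98 to 8.03 CPM), against 62.8, 18.7 and 133 CPM in these ES lines (edgeR log2 fold change -3.64 ± 1.18, adjusted p = 0.426). CD44 had 8.62 CPM in the iPS library (51 reads, interval 6.42 to 11.3 CPM), against 25.3, 62.5 and 29.3 CPM across ES lines (-2.18 ± 0.67, adjusted p = 0.386). In both cases the interval ended below the lowest ES line, as it also did for FN1, FBLN1 and DCN. Yet TGFBI and CD44 are the 2 genes, with FAP, that varied most among the ES lines themselves. With DESeq2 both were called lower (adjusted p = 0.00229 for TGFBI and 0.0298 for CD44), and over all alternatives the adjusted p ran from 0.00229 to 1.0 for TGFBI, whose log2 fold change was -2.79 without line No20 and -4.11 without DSY127, and from 0.0298 to 1.0 for CD44.

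The other genes lay closer to the ES lines in the iPS library. FN1 had 1907 CPM in the iPS library (interval 1872 to 1943 CPM), against 1985 CPM in the lowest ES line (log2 fold change against all lines -0.49 ± 0.39, adjusted p = 0.771). FBLN1 had 186 CPM (interval 175 to 197 CPM), against 236 CPM in the lowest line (-0.62 ± 0.36, adjusted p = 0.697). DCN had 6.59 CPM from 39 reads, with an interval of 4.69 to 9.01 CPM, against 9.39 CPM in the lowest line (-0.77 ± 0.40, adjusted p = 0.668). TIMP1 had 26.2 CPM (interval 22.2 to 30.7 CPM), an interval that takes in the 28.9 CPM of line No40. FBN1 had 96.5 CPM (interval 88.8 to 105 CPM), just above the 91.5 CPM of the same line. MMP2 had 388 CPM in the iPS library, inside the ES range of 303 to 414 CPM. None of these differences passed the test, which does not show that the levels were equal.

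Set against the fibroblast library, with 1 library on each side and so no test, 6 of the 9 genes were at least 4-fold lower in the iPS library and FBLN1 was at least 4-fold higher. Over all genes tested, 12.7% were at least 4-fold lower and 19.9% at least 4-fold higher. FBLN1 had 186 CPM in the iPS library against 29.8 CPM in the fibroblast library, 6.24-fold higher (log2 ratio 2.64, counting interval 2.53 to 2.76). TGFBI showed the widest gap, with 5.75 CPM in the iPS library against 1406 CPM in the fibroblast library (log2 ratio -7.93, interval -8.46 to -7.45). DCN had a log2 ratio of -6.59, CD44 of -5.75, FBN1 of -4.09, TIMP1 of -3.56 and FN1 of -2.61. Only MMP2 (-1.67, interval -1.73 to -1.61) and FAP (-1.90, interval -2.24 to -1.58) were within 4-fold, and the interval of FAP reaches past 4-fold. As a share of the fibroblast level, the iPS library held 31.4% of MMP2, 26.8% of FAP, 16.4% of FN1, 8.49% of TIMP1, 5.85% of FBN1, 1.85% of CD44, 1.04% of DCN and 0.409% of TGFBI. The ES mean held 28.2% of MMP2, 1.15% of FAP, 22.98% of FN1, 12.8% of TIMP1, 4.23% of FBN1, 8.39% of CD44, 1.77% of DCN and 5.09% of TGFBI. The iPS share was the larger for MMP2, FBN1 and FAP, and for FAP the shares differed most.

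Levels of different genes were compared as TPM, which divides counts by gene length. FN1 was the most abundant of the 9 in every library, with 411 TPM in the iPS library, 2432 TPM in the fibroblast library, and 832, 591 and 442 TPM in ES lines No40, DSY127 and No20. In the fibroblast library it ranked 33 among all 30811 genes. There it was followed by TGFBI (931 TPM), MMP2 (596 TPM), DCN (479 TPM), TIMP1 (340.3 TPM), FBN1 (296 TPM), CD44 (286 TPM), FAP (27.6 TPM) and FBLN1 (20.98 TPM). FBLN1, the lowest of the set in fibroblasts, held place 2 in each ES line, with 275, 218 and 177 TPM in the same order of lines, and place 3 in the iPS library, with 135 TPM. TGFBI was the lowest of the set in the iPS library (3.93 TPM), next to DCN (5.13 TPM), CD44 (5.47 TPM) and FAP (7.62 TPM). FBN1 (17.9 TPM) and TIMP1 (29.8 TPM) lay between these and MMP2 (193 TPM).

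Among ES means the order was FN1 (622 ± 196 TPM, SD, n = 3), FBLN1 (223 ± 49.1), MMP2 (187 ± 43.1), TGFBI (52.1 ± 40.6), TIMP1 (47.6 ± 9.97), CD44 (26.1 ± 12.7), FBN1 (13.97 ± 4.93), DCN (9.27 ± 1.16) and FAP (0.342 ± 0.365). The ranges of the lines were apart only between FN1 and FBLN1, MMP2 and TGFBI, and DCN and FAP, so that the other neighbours in this order did not differ beyond their spread. FBLN1 was nevertheless above MMP2, and TIMP1 above CD44, in each of the 3 lines. The ratio of MMP2 to TIMP1 in TPM was 6.47 in the iPS library, 1.75 in the fibroblast library, and 6.25, 3.55 and 2.7 in ES lines No40, DSY127 and No20. MMP2 transcript thus exceeded TIMP1 transcript in every library, while FAP, the other protease of the set, was below TIMP1 in every library.

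**Figure D3:**
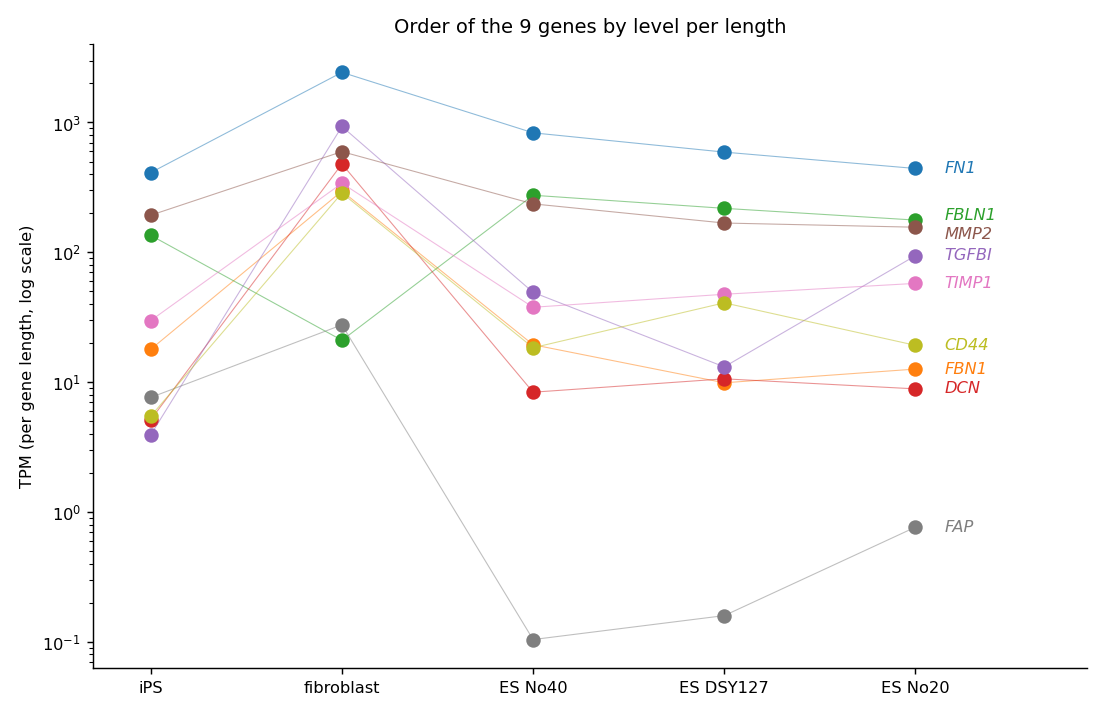
Level per gene length in TPM (log axis) of the 9 genes in the iPS library, the fibroblast library and the 3 ES lines. Points are single libraries, and thin lines only join the points of 1 gene. FN1 is the highest point in every library, FBLN1 is the lowest in the fibroblast library, and FAP is the lowest in each ES line.

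The genes also differed in how much the ES lines varied. The ratio of the highest to the lowest line was 1.37 for MMP2, 1.4 for FBLN1, 1.41 for DCN, 1.69 for FN1, 1.7 for TIMP1 and 1.77 for FBN1, close to or below the median of 1.67 over the 13831 genes tested with at least 1 CPM on average in the ES lines. CD44 had a ratio of 2.47, with its highest level in DSY127. TGFBI had a ratio of 7.15, highest in No20 and lowest in DSY127, which 3.86% of those genes reached. FAP had a ratio of 8.16, highest in No20 and lowest in No40, at fewer than 1 CPM on average. No line was the highest throughout: No40 led for FN1, FBN1, FBLN1 and MMP2, No20 for TGFBI, TIMP1 and FAP, and DSY127 for DCN and CD44.

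Patterns over the 5 libraries were compared among the 9 genes and with 10125 genes that have a symbol and at least 1 CPM on average, by the root mean square difference in log2 CPM after centring each gene on its own mean. Within the set, FN1 and MMP2 were closest (0.32) and FAP and FBLN1 farthest apart (4.19). The genes most like FN1 were NFATC4, HFE and TGFBR3, the betaglycan co-receptor for TGF-beta, at 0.08 to 0.09. Those most like MMP2 were GBE1, CNST and CC2D1A, also at 0.08 to 0.09, and those most like TIMP1 were PPP1R18, POPDC3 and B3GLCT, at 0.07 to 0.17. DCN was nearest to HOXC12, CTSK (cathepsin K, a collagen-degrading protease) and GFRA1, at 0.17 to 0.3. CTSK had 2.03 CPM in the iPS library, 216 CPM in fibroblasts and 3.05 to 5.03 CPM in the ES lines. FBLN1 was nearest to LRATD2, ARHGEF19 and RAB15 (0.12 to 0.16), FBN1 to ZNF536, EHBP1L1 and TOM1L2 (0.17 to 0.26), and CD44 to PEAR1, SPTLC3 and NTN4 (0.19 to 0.4). TGFBI (EYA4, CYBRD1 and IL7R, 0.5 to 0.53) and FAP were farther from their nearest genes. The nearest to FAP, at 0.76 to 0.88, were OSR1, BICC1 and ATOH8. OSR1, a zinc finger transcription factor, had 15.2 CPM in the iPS library, 84.2 CPM in fibroblasts and 0.362 to 1.01 CPM in the ES lines. These likenesses rest on 5 libraries. HOXC12 had 4.91 CPM in the fibroblast library and at most 0.0556 CPM elsewhere, EYA4 had 4.47 CPM and at most 0.686 CPM elsewhere, and IL7R had 5.97 CPM and at most 1.05 CPM elsewhere. Outside the fibroblasts, the distance of HOXC12 therefore rests on few or no reads and on the prior count of 2, so no likeness can be read from it there. EYA4 and IL7R had 0.0 CPM in the iPS library, so the same holds for these genes in that library. In the ES lines both were low, with 0.0556 to 0.686 CPM for EYA4 and 0.139 to 1.05 CPM for IL7R. In the iPS library, ZNF536, PEAR1 and SPTLC3 had 0.676 CPM each and CYBRD1 had 0.338 CPM, with 1 read worth 0.169 CPM. Their likeness in that library thus rests on few reads as well.

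Genes of related function were counted in the same fit. Of 172 tested genes on 8 lists, 77 rose (44.8%) and 22 fell (12.8%) in the fibroblast library, and their median log2 fold change was 1.33. Over all genes tested, 8.80% were called higher and 9.28% lower, the shares to set beside the counts of every list. Of 44 matrix glycoproteins other than the set itself, 23 rose and 8 fell (median 1.88). MXRA5, a matrix protein, had 2956 CPM in fibroblasts against 7.12 ± 1.11 CPM in the ES lines (SD, n = 3), and tenascin-C (TNC) had 5262 CPM against 76.6 ± 23.0 CPM. THBS1, or thrombospondin-1, rose too (log2 fold change 5.09 ± 0.32). LAMA1, the laminin chain of early basement membranes, fell to 42.4 CPM in fibroblasts, against 336 ± 85.8 CPM in the ES lines, and vitronectin (VTN) fell to 21.7 CPM, against 122 ± 11.02 CPM. Without ES line No40, 21 of the matrix glycoproteins rose and 4 fell. Over all genes that fit called 924 higher and 818 lower, against 1537 and 1620 with all lines.

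Of 21 proteoglycans, 9 rose and 4 fell (median 0.72). The hyaluronan-binding versican (VCAN) had 3629.6 CPM in fibroblasts against 94.4 ± 37.9 CPM in the ES lines (SD, n = 3). The membrane proteoglycan SDC2 (log2 fold change 4.49) and the small or matrix proteoglycans PRELP (4.62) and BGN (3.51) rose with it. The testicans SPOCK3 (-7.58) and SPOCK2 (-5.88) fell. Without ES line No40, only 6 proteoglycans rose and only 2 fell. Of 13 hyaluronan genes, 2 rose and 2 fell (median -0.08). CEMIP, which takes part in hyaluronan breakdown, had 639 CPM in fibroblasts against 9.39 ± 7.78 CPM in the ES lines, and TNFAIP6, a hyaluronan-binding protein, had 39.2 CPM against 0.247 ± 0.167 CPM. The hyaluronan synthase HAS3 fell to 5.17 CPM in fibroblasts, against 95.8 ± 27.1 CPM in the ES lines, as did ITIH5 (log2 fold change -6.22).

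Of 38 genes on the matrix protease list, which also holds PREP, ADAM10 and ADAM17, 18 rose and 4 fell (median 2.23). MMP14, a membrane enzyme that activates pro-MMP2, had 989 CPM in fibroblasts against 44.6 ± 11.03 CPM in the ES lines (SD, n = 3). CTSK (log2 fold change 5.71), the collagenase MMP1 (6.37) and ADAM12 (3.29) rose as well. The gelatinase MMP9 moved against MMP2, with 0.357 CPM in fibroblasts and 27.4 ± 17.5 CPM across ES lines (-6.25 ± 1.11, adjusted p = 0.0129), and MMP15 fell (-3.57). Without ES line No40, MMP9 did not pass (adjusted p = 0.0508), and 12 genes of the list rose and 2 fell. Of 9 genes on the protease inhibitor list, which also holds the receptor PLAUR and the serpin SERPINF1, 2 rose and 1 fell (median 1.03). TFPI2 rose by 1.41 on the log2 scale, and SERPING1, which inhibits complement proteases, fell by 2.11. TFPI2 did not pass without ES line No40 or DSY127, nor with total counts alone (adjusted p = 0.0623, 0.0548 and 0.0909), SERPING1 did not pass without DSY127 (adjusted p = 0.0519), and the counts were 1 higher without No40, 0 lower without DSY127, and 5 higher and 2 lower without No20.

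Of 16 crosslinking and collagen-processing enzymes, 9 rose and 1 fell (median 1.9). P4HA3 (log2 fold change 5.6), PCOLCE (4.25), LOXL1 (2.64) and PLOD3 (2.34) rose, and the transglutaminase TGM2 fell (-3.4). Without ES line No40, 5 rose and none fell, TGM2 having an adjusted p of 0.0641. In the iPS library, none of the 172 genes passed the edgeR test. Before adjustment, p was under 0.05 for 16 higher and 16 lower genes of the lists, and for 971 higher and 547 lower of all genes tested (5.56% and 3.13%). DESeq2 called 11 higher and 3 lower (2.26% and 0.434% of all genes). Limma voom called 0 in either direction (0.0286% of all genes higher and 0.00% lower). With no filter on low counts, 8 were called higher and 0 lower, with 0.855% of all genes called higher and 0.0259% lower. Without ES line No20, 9 were called higher and 1 lower (1.49% and 0.0698% of all genes). Without DSY127 the counts were 2 higher and 0 lower (0.239% and 0.00% of all genes), and without No40 they were 0 in both directions.

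**Figure D4:**
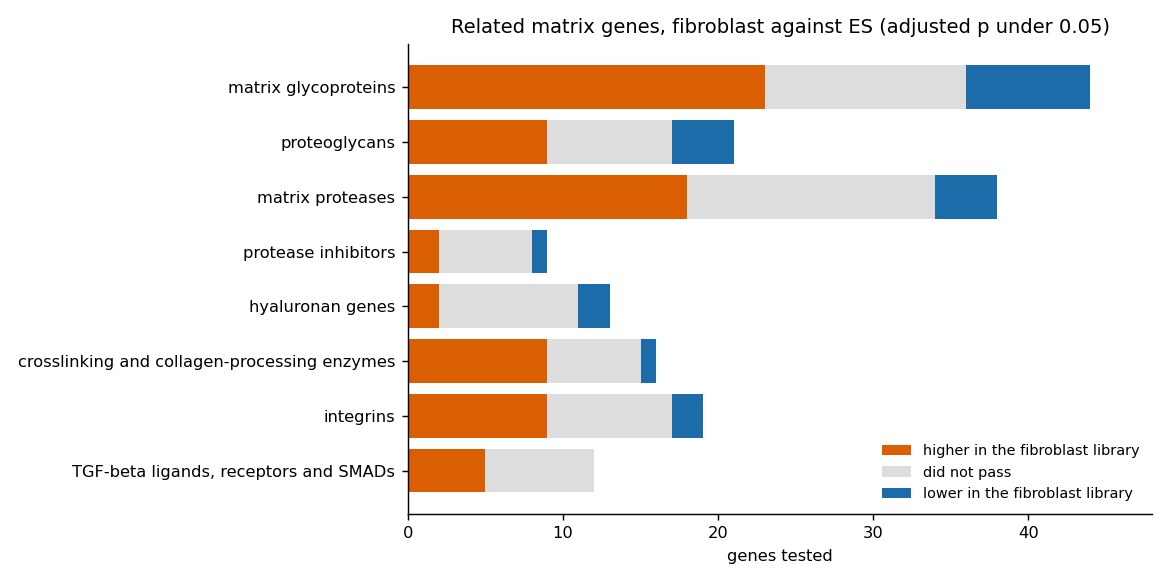
Number of tested genes of each list that were called higher (orange), did not pass (grey) or were called lower (blue) in the fibroblast library against the 3 ES lines, at an adjusted p under 0.05. The longest orange bar is that of the matrix glycoproteins, with 23 of 44 genes higher and 8 lower.

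The sources used here do not name the genome build. In the coordinates of the files, FN1 (ENSCJAG00000011714) lies on the minus strand of chromosome 6 from 131700480 to 131778187, and FAP (ENSCJAG00000005868) on the plus strand of the same chromosome from 56571872 to 56643345. FBLN1 (ENSCJAG00000012893) lies on chromosome 1 from 205266765 to 205352059, TGFBI (ENSCJAG00000005930) on chromosome 2 from 32819874 to 32854435, and DCN (ENSCJAG00000019513) on chromosome 9 from 77047773 to 77082837. FBN1 (ENSCJAG00000001735) spans 25584622 to 25822755 on chromosome 10, CD44 (ENSCJAG00000010912) 98362125 to 98455163 on chromosome 11, and MMP2 (ENSCJAG00000012929) 9452147 to 9479945 on chromosome 20. TIMP1 (ENSCJAG00000012555) spans 46583380 to 46587609 on chromosome X, inside the span of SYN1 on the opposite strand. The exons of TIMP1 and SYN1 share 0 bases, and none of the other 8 genes overlaps an annotated neighbour. Counts were summed over exons, between 1709 bases for TIMP1 and 10486 bases for FBN1, so splice forms, of which FN1 and CD44 are known to have many, were not resolved.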

How the data were processed

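Raw gene counts were deposited by the authors, as 1 joint table and as separate files, and agreed exactly for all 5 libraries. The submitters' processing notes name featureCounts 1.5.2, STAR 2.5.3a and Trim Galore 0.4.0 without roles. The sources used here name no genome build, strand or multi-mapping setting, so genes with near-identical copies may share reads.

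Of 30811 identifiers, 12660 (41.1%) matched a symbol, as did 178 of 217 pathway list entries and 60 of 81 marker list entries. Genes were kept with filterByExpr (17462) in R 4.3.3 with edgeR 4.0.16, with TMM factors of 0.813 (fibroblast), 1.05 to 1.07 (ES) and 1.03 (iPS). All 5 libraries entered 1 quasi-likelihood fit, with Benjamini-Hochberg adjustment over all genes and a threshold of 0.05. The SE is the log2 fold change divided by the square root of F. P-values rest on the spread between the 3 ES lines, moderated for each gene towards the trend over all genes, and the lone libraries are assumed to vary likewise. Log2 CPM used a prior count of 2. Intervals are 95% exact Poisson or exact conditional ratio intervals and cover counting error only.

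The alternatives were other scalings and filters, DESeq2 1.42.0, limma 3.58.1 voom, leaving out each ES line, and fitting only the groups compared. The main edgeR fit was also run on simulated counts, drawn with less spread than these data, so that run does not show its accuracy here. The members and lists were chosen with earlier results of these data known. Named genes are the 9 members, up to 4 called genes of each list in the commoner direction and 2 in the other (smallest adjusted p), the 3 genes nearest each member, and cell type checks, of which POU5F1 and NANOG enter only as part of their marker list. Some genes the rule gives are not reported here. No batch is given in the labels.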

Additional observations from a re-analysis of the deposited data

How the results depend on the processing

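In the fibroblast comparison, 98 of 99 values of the 9 genes under the 11 alternative fits kept their call and direction, the exception being TGFBI without ES line No40. In the iPS comparison 94 of 99 did, the exceptions being FAP, TGFBI and CD44. Leaving out 1 ES line gave 7 to 8 higher and 1 to 1 lower of the 9 genes in fibroblasts, and 0 to 1 higher in the iPS library. With DESeq2, 1 was higher and 2 lower in the iPS library, and with no low-count filter 1 was higher. Over all genes, leaving out 1 ES line gave 924 to 2184 higher and 818 to 2366 lower in fibroblasts, and 0 to 256 higher (41 without DSY127) and 0 to 12 lower in the iPS library. DESeq2 called 2718 genes lower in fibroblasts, and 349 higher and 67 lower in the iPS library. Limma voom called 1009 lower in fibroblasts and 5 higher in the iPS library, and no filter gave 198 higher and 6 lower there. The cause was not tested. Total counts alone moved the median of all genes by -0.38 (log2) in fibroblasts. Relative to that median the 9 log2 fold changes moved by at most 0.01. Since scaling moves all genes of a library nearly alike, this follows almost by construction and says nothing about the 9 genes. The order of levels in TPM is that of FPKM by construction. No paired analysis was possible because the fibroblast and iPS groups hold 1 library each and the labels pair no libraries. Depth limits the iPS values most, where 3 reads are 0.507 CPM.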

Other observations

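Receptors and regulators of the matrix genes were counted in the same fit, in which 8.80% of all genes tested were called higher and 9.28% lower. Of 19 integrins, 9 rose and 2 fell in the fibroblast library (median log2 fold change 1.24). ITGA11, a collagen receptor chain, had 643 CPM in fibroblasts against 10.2 ± 2.22 CPM in the ES lines (SD, n = 3), and ITGB3, ITGA8 and ITGA4 rose by 3.84, 4.84 and 6.0 on the log2 scale. ITGA5 and ITGB1, which form the main fibronectin receptor, had 693 and 2742 CPM in fibroblasts against 234 ± 76.6 and 772 ± 134 CPM in ES cells (edgeR adjusted p = 0.0421 and 0.0113), both named after their values were seen. ITGA6, a laminin receptor chain, fell to 51.4 CPM in fibroblasts, against 168 ± 27.9 CPM in the ES lines, and ITGB7 fell by 5.03 on the log2 scale. Neither passed without ES line No40 (adjusted p = 0.0507 and 0.0551), nor ITGA6 without DSY127 (adjusted p = 0.0733). Without No40, 7 integrins rose and 0 fell, and without No20, 10 rose and 4 fell.

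Of 12 genes on the list of TGF-beta ligands, receptors and SMADs, 5 rose and none fell in the fibroblast library (median log2 fold change 1.27). That list also holds SKI, SKIL, FST and INHBA, of which INHBA was among the genes that rose. The receptor TGFBR2 had 238 CPM in fibroblasts against 3.4 ± 1.5 CPM in the ES lines (SD, n = 3), and the ligands TGFB1, TGFB2 and TGFB3 rose by 4.13, 3.47 and 2.28 on the log2 scale. Without ES line No40, or with total counts alone, 3 rose, and TGFB2 did not pass in either case (adjusted p = 0.147 and 0.0627). In the iPS library, TGFBR2 had 3.38 CPM.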
